A study of Mus musculus with 4 samples.

Results

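Chromatin accessibility was examined at 8 genes through which blood stem and progenitor cells attach to the bone marrow niche and home to it: the integrin subunit genes Itga4, Itga6, Itgal, Itgb1 and Itgb2, the hyaluronan receptor gene Cd44, the selectin ligand gene Selplg and the guidance receptor gene Robo4. Every region of the deposited peak table whose assigned gene name was one of these was taken, which gave 60 of 130941 peaks. Cd44 had 15 of them, Itga6 had 11, Itga4, Itgal and Itgb2 had 7 each, Itgb1 had 6, Selplg had 5 and Robo4 had 2. Open chromatin was measured with fast-ATAC, in which a transposase cuts accessible DNA and inserts sequencing adapters, in Lin-Sca1+ckit+ bone marrow cells of mice 10 weeks old. The groups were 2 Helios null mice, which lack Helios, a zinc finger transcription factor of the Ikaros family, and 2 wild-type mice, with 1 library per mouse. The deleted stretch of the gene and the mouse strain were not given in the sources used here. Whole sorted populations were measured, so a difference in the mix of cell types and a difference in accessibility within a cell type cannot be told apart.

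Integrins are receptors made of an alpha and a beta chain, and their ligand binding is switched on from inside the cell. Itga4 and Itgb1 encode the chains of VLA-4, which binds VCAM-1 and fibronectin. Itga6 encodes the alpha chain of a laminin receptor with the Itgb1 chain. Itgal and Itgb2 encode LFA-1, the leukocyte integrin that binds ICAM proteins. CD44 binds hyaluronan in the marrow matrix, PSGL-1, the product of Selplg, lets cells roll on selectins of vessel walls, and ROBO4 is a receptor of endothelial cells and stem cells that takes part in stem cell localisation to the niche.

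Total counts over all peaks were 30290804 and 22433714 in the Helios null libraries, against 29745812 and 16033211 in the wild-type libraries. Values are CPM after TMM scaling, that is, counts divided by library depth, and a peak's level is compared between genes only per kb of peak width. Coordinates are those of the mm10 build. Counts at Y-linked genes were 1166 and 2 in the Helios null libraries 1 and 2, against 1715 and 5 in the wild-type libraries 1 and 2. Library number therefore followed sex, and number 1 was also the deeper library in each genotype, so a difference within a number rests on 1 library of each genotype. Of the stem and progenitor markers fixed for the sort, 9 of 10 had peaks, with a median promoter level of 23.1 CPM per kb. Ly6a, which encodes Sca1, had no peak assigned to it. The mature lineage markers had peaks at 9 of 12 genes, with a median promoter level of 9.31 CPM per kb. Cd8a, Cd79a and Ncr1 had none, and Cd3e had none classed as promoter. Endothelial markers had peaks at 7 of 7 genes, with summed levels of 283 and 273 CPM in Helios null, against 251 and 243 CPM in wild type. Pecam1 carried this: without it the other 6 genes summed to 129.7 and 148 CPM in Helios null, against 144 and 171 CPM in wild type, with 2 of them above 0 and 4 below. Stromal markers had peaks at 4 of 4 genes, with summed levels of 129 and 112 CPM in Helios null, against 105 and 96.3 CPM in wild type. Most of this difference lay at Pdgfrb, with 72.0 and 55.8 CPM in Helios null, against 49.7 and 41.3 CPM in wild type. Of the 4 genes 3 lay above 0. Lepr lay below, with 10.5 and 11.9 CPM in Helios null, against 12.2 and 21.7 CPM in wild type. Robo4, Itga6 and Cd44 are also active in endothelial cells, and the part of these marker differences in the values below was not tested.

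The start of each of the 8 genes was taken as the end of its RefSeq span that lay inside one of its peaks. A peak over every start was therefore set by this choice and is not a result. That peak was classed as promoter-TSS in the deposited table for 6 genes and as intron for Itga6 and Robo4. Itga4 was the most open of these starts, with 71.5 and 70.3 CPM per kb in Helios null and 73.1 and 68.5 in wild type. Itgb1 followed with 29.0 and 32.3 CPM per kb in Helios null, against 29.7 and 41.2 in wild type. Next in order of the mean over 4 libraries stood Cd44 at 28.0, Itgal at 25.4, Robo4 at 22.3, Itgb2 at 22.1, Selplg at 19.9 and Itga6 at 17.4 CPM per kb. The level of Itga4 lay above the range of every other start. From Itgb1 downward each gene's range over the 4 libraries overlapped that of the next, so neighbours in this order did not differ beyond their spread. The range of Itgb1 lay above those of Robo4, Itgb2, Selplg and Itga6, and that of Cd44 above that of Itga6. The median over all promoter-TSS peaks of the table was 15.3 CPM per kb.

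RefSeq promoter sequence was at hand for 4 of the 8 genes (build GRCm38.p6), and these are shown beside start-site peaks that lay near wild type at Itga4, higher in Helios null at Cd44 and lower at Robo4. Each runs 5′ to 3′ towards the start and ends before the first base of the RefSeq gene. Capitals mark matches, on either strand, to the 6 motifs searched, which are spelled out after the sequences.
Itga4 (chr2:79255176-79255425, plus strand): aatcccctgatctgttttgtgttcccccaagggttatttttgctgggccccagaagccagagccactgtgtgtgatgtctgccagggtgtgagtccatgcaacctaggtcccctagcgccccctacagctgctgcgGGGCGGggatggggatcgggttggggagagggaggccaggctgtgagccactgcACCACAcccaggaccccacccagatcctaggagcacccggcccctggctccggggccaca
Itgb1 (chr8:128685404-128685653, plus strand): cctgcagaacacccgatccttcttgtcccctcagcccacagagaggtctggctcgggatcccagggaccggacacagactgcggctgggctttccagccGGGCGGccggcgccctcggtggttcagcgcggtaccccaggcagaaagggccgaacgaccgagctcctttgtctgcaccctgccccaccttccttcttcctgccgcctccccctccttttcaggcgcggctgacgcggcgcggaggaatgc
Cd44 (chr2:102901670-102901915, minus strand): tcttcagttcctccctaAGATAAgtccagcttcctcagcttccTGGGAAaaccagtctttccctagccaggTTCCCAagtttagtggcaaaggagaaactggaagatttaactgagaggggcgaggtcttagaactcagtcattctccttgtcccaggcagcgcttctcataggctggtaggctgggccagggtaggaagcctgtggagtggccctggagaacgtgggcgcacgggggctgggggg
Robo4 (chr9:37401722-37401901, plus strand): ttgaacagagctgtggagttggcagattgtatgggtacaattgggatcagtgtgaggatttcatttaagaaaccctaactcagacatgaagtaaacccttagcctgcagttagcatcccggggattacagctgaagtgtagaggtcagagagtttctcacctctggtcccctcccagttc

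The promoter of Itgb1 held 21 CpG dinucleotides, that of Itga4 held 6, that of Cd44 held 5 and that of Robo4 held 1 in its shorter window of 180 bases. A GC box, searched as GGGCGG, stood in Itga4 and in Itgb1, and 32.7% of all 32851 promoter windows of 250 bases hold 1 or more. Itga4 had 1 match to the RUNX letters TGTGGT, which 14% of all windows hold. Cd44 had 1 match to AGATAA, the letters searched for GATA factors, which 9.99% of all windows hold. It also had 2 matches to TGGGAA, searched for the Ikaros family and held by 21.6% of all windows. Neither the ETS core CCGGAA (12% of windows) nor the AP-1 letters TGANTCA (6.75% of windows) were found in the 4 promoters, and Robo4 held no match to any of the 6. No match overlapped another. These matches describe the letters and do not show binding.

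Whether these sites differ without Helios was asked peak by peak, in a fit over the whole table. No member peak passed the test: 0 of 60 had an edgeR adjusted p under 0.05, where 8 of 130754 tested peaks did (0.00612%). The smallest adjusted p among the members was 0.190, at Itga6. By position, 39 of the 60 peaks lay inside the RefSeq gene they are assigned to, 5 within 10 kb of it and 16 farther away. For 17 of the 60 another RefSeq gene was nearer than the assigned one. Most members lay higher in Helios null, with 46 peaks above 0 and 14 below. Their median log2 fold change was 0.30, against 0.0063 over all tested peaks, of which 50.4% lay above 0. Both Helios null libraries stood above both wild-type libraries at 26 member peaks (43.3%) and below at 3 (5.0%), where the shares over all tested peaks were 28.0% and 28.3%. At an unadjusted edgeR p under 0.05 stood 11 members (19.8% of all tested peaks), 10 of them on the higher side (8.29% of all) and 1 on the lower side (11.5% of all). DESeq2 called 0 of the 26 members to which it gave an adjusted p (2.88% of all such peaks), and limma-voom 0 of 60 (0.00306% of all). All 60 passed the filter on low counts, with 11 to 3608 counts per library and peak.

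The size of this shift changed with the libraries kept. Wild type 2, the shallowest library, was the lowest of the 4 at 41 of the 60 member peaks (68.3%), where it was the lowest at 37.7% of all tested peaks. Helios null 1 was the highest at 33 member peaks (55.0%), against 33.2% of all. The members' median log2 fold change was 0.14 without Helios null 1, 0.42 without Helios null 2, 0.49 without wild type 1 and 0.19 without wild type 2. Each of these fits left library number, and with it sex and depth, unbalanced between the genotypes. The part of this imbalance in the changed medians was not tested. Without wild type 1, 11 member peaks passed, 9 higher and 2 lower, in a fit that called 21.5% of all tested peaks. None passed in edgeR without Helios null 1 (0.0298% of all peaks called), Helios null 2 (1.58%) or wild type 2 (0.781%). Within library number 1 the members' median difference was 0.28 on the log2 scale and within number 2 it was 0.30. Over all tested peaks these medians were -0.0094 and 0.0092. In both numbers 36 member peaks lay higher and 9 lower in Helios null, and the shares of this over all tested peaks were not computed.

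**Figure D1:**
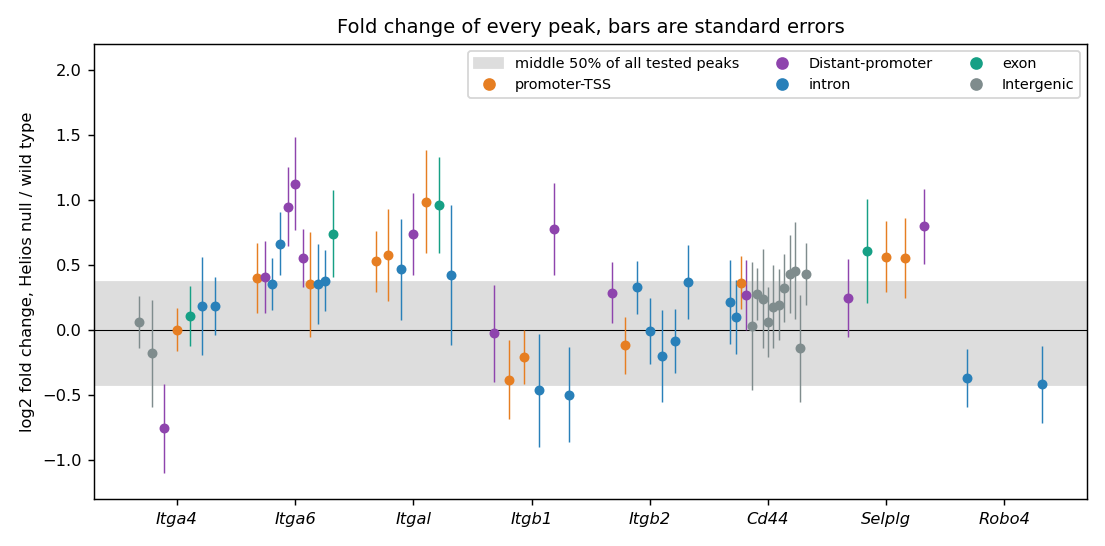
Log2 fold change (Helios null over wild type) of each of the 60 peaks, grouped by gene and ordered by coordinate within a gene. Colours give the class in the deposited table, bars are standard errors and the grey band holds the middle 50% of all tested peaks, between -0.43 and 0.37. Every peak of Itga6, Itgal and Selplg lies above 0, and both peaks of Robo4 lie below.

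Classes of sites were compared because the deposited table has different background shifts in each. Of the member peaks, 19 were classed as intron, 13 as Intergenic, 12 as promoter-TSS, 12 as Distant-promoter and 4 as exon. Distant-promoter members had a median log2 fold change of 0.48, against 0.082 over all tested peaks of that class. Promoter-TSS members had 0.38, against 0.016, and intronic members 0.19, against 0.0071. Intergenic members had 0.19, against -0.14 over their class, and the exonic members had 0.67, against 0.0025. In each of these classes the members' median was above that of the class. The classes are not separate sets of genes, since a gene can have peaks in several of them. Of the 13 Intergenic members 11 were peaks of Cd44.

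Summed over all peaks of a gene, counts were tested again across 31513 genes, so that each member gave 1 value. No gene passed in this fit, members included (0 of 31513, 0%). Limma-voom also called 0 of the 8 gene sums, where it called 1 of 31513 genes (0.00317%). DESeq2 called 0 of the 8 too, where it called 1534 of the 22348 genes to which it gave an adjusted p (6.86%). Of the 8 sums 6 lay above 0, as did 51.0% of all genes, and the Helios null libraries stood above both wild-type libraries at 4 (34.1% of all genes). Itga6, Itgal and Selplg had an unadjusted edgeR p under 0.05 (25.3% of all genes in either direction), and these 3 were on the higher side (10.2%). None was on the lower side (15.1%). Without wild type 1, the sums of Itga6, Itgal, Cd44 and Selplg passed, with edgeR adjusted p from 4.70e-04 to 0.0240, in a fit that called 39.0% of all gene sums.

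**Figure D2:**
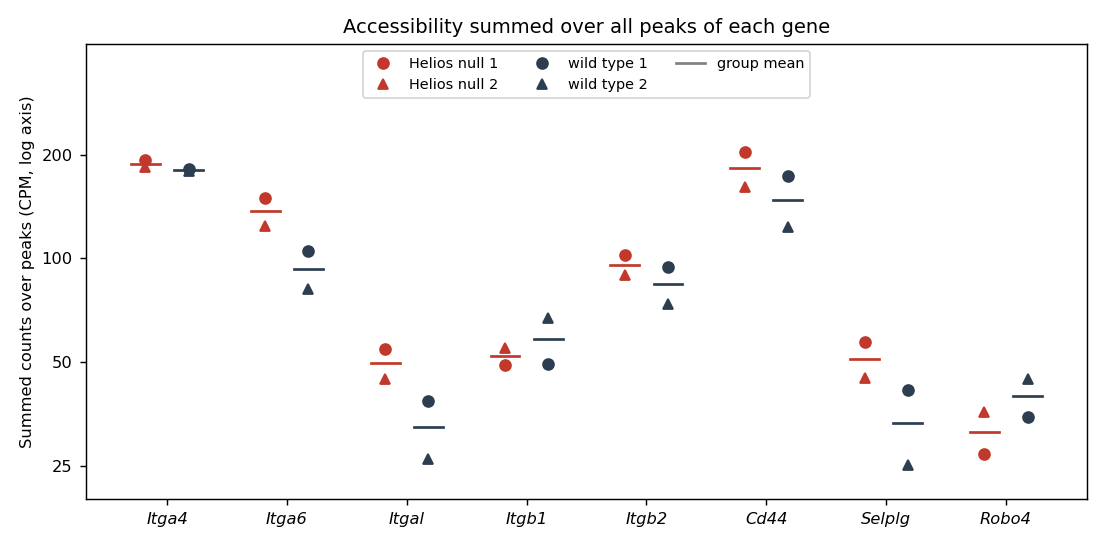
Counts summed over all peaks of each gene, in CPM on a log axis, for each library, with Helios null left of wild type. Circles are library number 1, triangles number 2 and lines group means. The Helios null libraries lie above both wild-type libraries at Itga4, Itga6, Itgal and Selplg.

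Among the alpha chains, Itga6 (chromosome 2, RefSeq start 71786886, end 71858427) lay above wild type at nearly every peak. Its summed level was 150.2 and 125 CPM in Helios null, against 105 and 81.3 CPM in wild type. The groups did not overlap, and the log2 fold change was 0.56 (95% interval 0.11 to 1.01, edgeR adjusted p = 0.179). Its 11 peaks were measured in the same 4 libraries and are not independent. All 11 lay above 0, as did 50.4% of all tested peaks. At 10 of them both Helios null libraries were above both wild-type libraries, as at 28.0% of all tested peaks. The exception (start 71837914, end 71838149) held 1.62 and 1.27 CPM in Helios null, against 0.963 and 1.36 CPM in wild type.

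A group of 3 neighbouring Itga6 peaks stood 26.1 to 27.4 kb past the start. They are classed as Distant-promoter, and their detailed annotation is the first intron. The first and second of them held the greatest log2 fold changes of the gene. The first (start 71812795, end 71813226) held 18.0 and 12.4 CPM in Helios null, against 9.97 and 5.62 CPM in wild type. Its log2 fold change was 0.95 (SE 0.31, edgeR adjusted p = 0.190). The narrow second peak (start 71813506, end 71813650) held 4.22 and 2.57 CPM in Helios null, against 1.63 and 1.49 CPM in wild type, a log2 fold change of 1.12 (SE 0.36, edgeR adjusted p = 0.190). At the third (start 71813869, end 71814711), the most accessible Itga6 peak by CPM, the values were 39.8 and 31.4 CPM in Helios null and 28.1 and 20.2 CPM in wild type. Its log2 fold change was 0.55 (SE 0.22, edgeR adjusted p = 0.220). In all 3 both Helios null libraries were above both wild-type libraries, as at 28.0% of all tested peaks. The Helios null library was therefore also the higher within each library number.

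Nearer the start, an intronic Itga6 peak (start 71800609, end 71802042) had replicates close to each other, at 10.03 and 9.90 CPM in Helios null, against 6.24 and 6.33 CPM in wild type (log2 fold change 0.66, edgeR adjusted p = 0.202). At the far end of the gene an exonic peak (start 71852096, end 71852517) held 3.20 and 5.28 CPM in Helios null, against 2.52 and 2.52 CPM in wild type. Its log2 fold change was 0.74 (edgeR adjusted p = 0.249). The wild-type libraries were alike there and the Helios null libraries were spread.

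At the start of Itga6 itself the difference was smaller. The peak over the RefSeq start (start 71786509, end 71788200) held 36.1 and 30.0 CPM in Helios null, against 27.9 and 23.7 CPM in wild type (log2 fold change 0.36, edgeR adjusted p = 0.329). The peak annotated to the promoter of another Ensembl transcript lies 41.9 kb upstream of it (start 71744567, end 71745313), within the RefSeq lncRNA gene Gm17250. It held 5.97 and 6.76 CPM in Helios null, against 5.18 and 4.39 CPM in wild type. In the authors' deposited table the lowest adjusted p of any member, 0.0873, belonged to the first of the 3 neighbouring Itga6 peaks. The authors' log2 fold change there was 0.69. It comes from another method than the edgeR value of 0.95 for the same peak, so their sizes are not compared. The authors' deposited table called 0 of the 34 member peaks that had an adjusted p there, where it called 774 of 54782 (1.41%). Its fold changes lay above 0 at 44 member peaks and below 0 at 16.

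**Figure D3:**
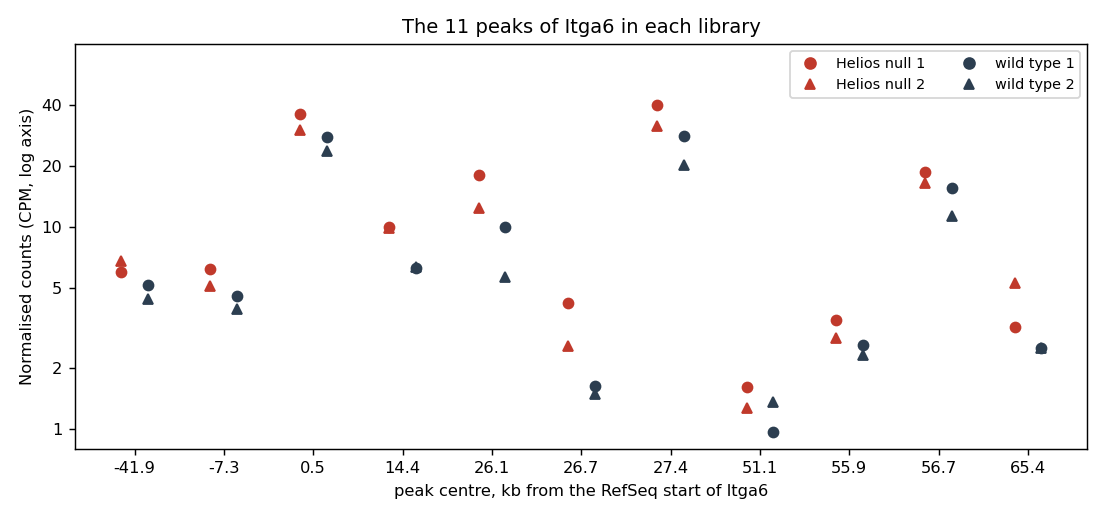
Normalised counts (CPM, log axis) at the 11 peaks of Itga6 in each library, Helios null left of wild type, by the distance in kb of the peak centre from the RefSeq start. Only at the peak 51.1 kb past the start do the groups overlap.

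Of the LFA-1 chain genes, Itgal, the alpha chain gene (chromosome 7, RefSeq start 127296139, end 127335137), had summed levels of 54.5 and 44.6 CPM in Helios null, against 38.6 and 26.1 CPM in wild type. The groups did not overlap (log2 fold change 0.61, 95% interval 0.070 to 1.15, edgeR adjusted p = 0.182). All 7 Itgal peaks lay above 0, as did 50.4% of all tested peaks. The promoter peak over its start (start 127295839, end 127297002) held 38.6 and 31.3 CPM in Helios null, against 29.0 and 19.2 CPM in wild type, a log2 fold change of 0.53 (edgeR adjusted p = 0.244). An exonic peak 18.0 kb into the gene (start 127313944, end 127314368) held 2.31 and 2.18 CPM in Helios null, against 0.997 and 1.36 CPM in wild type, with a log2 fold change of 0.96 (edgeR adjusted p = 0.210).

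Its partner Itgb2, the beta chain shared by the leukocyte integrins (chromosome 10, RefSeq start 77530329, end 77565708), had summed levels of 102 and 89.5 CPM in Helios null, against 94.4 and 73.6 CPM in wild type. These overlapped (log2 fold change 0.19, 95% interval -0.24 to 0.62, edgeR adjusted p = 0.505). The promoter peak over the start (start 77530126, end 77530835) held 15.5 and 14.7 CPM in Helios null, against 18.1 and 14.5 CPM in wild type. The first-intron peak just past it (start 77530935, end 77532206), the most accessible of the gene, held 39.6 and 34.9 CPM in Helios null, against 33.7 and 25.5 CPM in wild type, and there the groups did not overlap (log2 fold change 0.33, edgeR adjusted p = 0.371). Of the 7 Itgb2 peaks 3 lay above 0 and 4 below. The lower one with the smallest p, an intronic peak (start 77537317, end 77537534), held 2.47 and 2.09 CPM in Helios null, against 3.22 and 1.94 CPM in wild type. The difference between the 2 chains was not tested.

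Of the VLA-4 chain genes, the alpha chain gene Itga4 had a sum near that of wild type, though both Helios null libraries stood above both wild-type libraries. Itga4 (chromosome 2, RefSeq start 79255426, end 79333114) had summed levels of 193 and 184 CPM in Helios null, against 181 and 179.6 CPM in wild type (log2 fold change 0.064, 95% interval -0.29 to 0.42, edgeR adjusted p = 0.794). Its promoter peak (start 79254565, end 79256204), the most accessible of all 60, held 117 and 115 CPM in Helios null, against 120 and 112 CPM in wild type. Its log2 fold change was 0.0023, with a 95% interval from -0.36 to 0.36. An intronic peak 14.9 kb past the start (start 79270009, end 79270687) held 29.9 and 30.2 CPM in Helios null, against 21.2 and 31.9 CPM in wild type, so that wild type 1 alone was low. The member farthest on the lower side was the Distant-promoter peak 11.3 kb upstream of Itga4 (start 79243662, end 79244576). This peak lies nearer to the RefSeq lncRNA gene Gm35813 than to Itga4. It held 2.97 and 2.79 CPM in Helios null, against 3.45 and 6.46 CPM in wild type, with a log2 fold change of -0.76 (edgeR adjusted p = 0.252). Wild type 2 was well above the other 3 libraries there.

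Itgb1, the beta chain shared by VLA-4 and the laminin receptor (chromosome 8, RefSeq start 128685654, end 128733579), had summed levels of 49.0 and 54.8 CPM in Helios null, against 49.4 and 67.2 CPM in wild type. The groups overlapped (log2 fold change -0.17, 95% interval -0.63 to 0.30, edgeR adjusted p = 0.588). The promoter peak (start 128685290, end 128686621) held 38.6 and 43.0 CPM in Helios null, against 39.6 and 54.8 CPM in wild type. Of the 6 Itgb1 peaks 5 lay below 0. The exception, a Distant-promoter peak in intron 3 (start 128709370, end 128709561), held 2.11 and 2.92 CPM in Helios null, against 1.49 and 1.42 CPM in wild type, without overlap (log2 fold change 0.77, edgeR adjusted p = 0.256). In intron 14 a peak (start 128724766, end 128725212) held 2.11 and 3.01 CPM in Helios null, against 2.62 and 4.71 CPM in wild type (log2 fold change -0.50). The median log2 fold change over the peaks of a gene was 0.061 at Itga4 and -0.30 at Itgb1, and for the LFA-1 chains it was 0.57 at Itgal and -0.0080 at Itgb2.

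**Figure D4:**
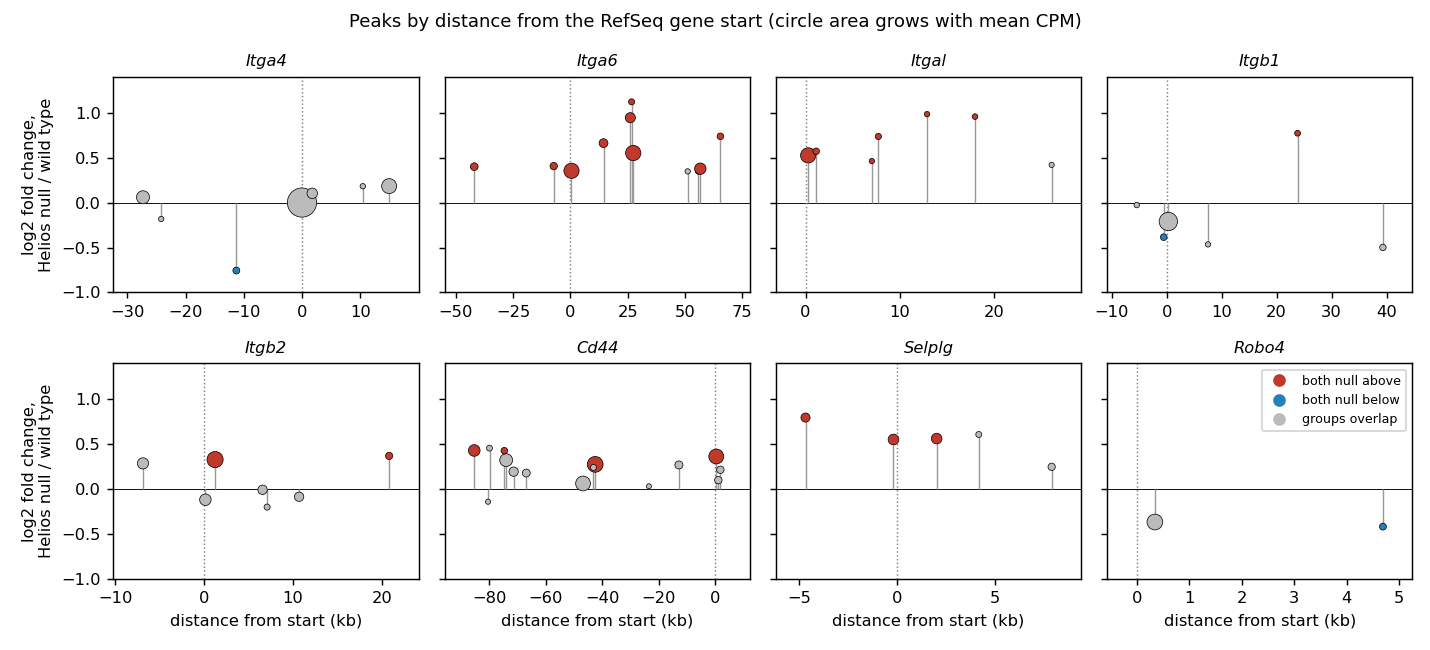
Log2 fold change (Helios null over wild type) of each peak against its distance in kb from the RefSeq start of its gene, with upstream to the left. Circle area grows with mean CPM, and colours show whether both Helios null libraries were above or below both wild-type libraries. The higher Itga6 peaks near 26 kb stand together inside the gene, and the Cd44 peaks reach 85.3 kb upstream.

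Cd44 (chromosome 2, RefSeq span 102811141 to 102901669, minus strand, with its transcription start at the higher coordinate) had most of its open chromatin outside the gene. Summed levels were 204 and 161 CPM in Helios null, against 173 and 123 CPM in wild type, with overlap (log2 fold change 0.30, 95% interval -0.20 to 0.80, edgeR adjusted p = 0.369). The promoter peak (start 102900819, end 102901821) held 34.0 and 29.2 CPM in Helios null, against 26.9 and 22.1 CPM in wild type, without overlap (log2 fold change 0.36, edgeR adjusted p = 0.324). A further 11 peaks assigned to Cd44 were classed as Intergenic and lay 23.5 to 85.3 kb upstream. They are nearer to the RefSeq lncRNA gene Gm34483 (start 102941062, end 102960573) than to Cd44, and the table's assignment does not show which gene they act on.

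Within this upstream stretch, 10 of the 11 peaks lay above 0, as did 41.8% of all tested Intergenic peaks. At 3 of the 11 both Helios null libraries stood above both wild-type libraries, as at 21.8% of all tested Intergenic peaks and 28.0% of all tested peaks. The most accessible Cd44 peak, inside Gm34483 (start 102943864, end 102944470), held 38.3 and 31.5 CPM in Helios null, against 30.9 and 26.8 CPM in wild type (log2 fold change 0.28, edgeR adjusted p = 0.434). The farthest peak (start 102986461, end 102987491) held 18.4 and 18.8 CPM in Helios null, against 16.4 and 11.04 CPM in wild type, and had the smallest p of the gene (log2 fold change 0.43, edgeR adjusted p = 0.322). A small peak (start 102982014, end 102982185) was the only Cd44 peak below 0, with 1.09 and 0.960 CPM in Helios null, against 1.26 and 0.969 CPM in wild type.

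Selplg (chromosome 5, RefSeq span 113817798 to 113832528, with its transcription start at the higher coordinate) had summed levels of 57.3 and 45.0 CPM in Helios null, against 41.4 and 25.1 CPM in wild type. The groups did not overlap, and wild type 2 was the lowest (log2 fold change 0.62, 95% interval 0.0058 to 1.23, edgeR adjusted p = 0.196). The difference was 0.47 within library number 1 and 0.84 within number 2. All 5 peaks lay above 0, as did 50.4% of all tested peaks. The promoter peak over the start (start 113832378, end 113833039) held 16.3 and 15.1 CPM in Helios null, against 14.3 and 6.91 CPM in wild type (log2 fold change 0.55, edgeR adjusted p = 0.322). A second peak classed as promoter lies inside the gene (start 113830216, end 113830783) and held 19.1 and 11.998 CPM in Helios null, against 11.9 and 9.04 CPM in wild type, where Helios null 1 stood above the other 3 libraries. The greatest difference was at a Distant-promoter peak 4.68 kb upstream (start 113836932, end 113837492), with 12.1 and 10.4 CPM in Helios null, against 7.97 and 4.84 CPM in wild type (log2 fold change 0.80, SE 0.29, edgeR adjusted p = 0.199). From its edges this peak lies 4.2 kb from the RefSeq lncRNA gene Gm52824 and 4.4 kb from Selplg.

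Robo4 (chromosome 9, RefSeq start 37401902, end 37414023) was the only member gene with every peak below 0. Its summed levels were 27.0 and 35.8 CPM in Helios null, against 34.7 and 44.7 CPM in wild type. The groups overlapped (log2 fold change -0.34, 95% interval -0.85 to 0.18, edgeR adjusted p = 0.331), and within each library number the Helios null library was lower, by log2 differences of -0.36 and -0.32. The peak over the start (start 37401533, end 37402961) held 23.6 and 31.9 CPM in Helios null, against 30.7 and 40.9 CPM in wild type. In intron 10 the other peak (start 37406493, end 37406692) held 2.87 and 3.75 CPM in Helios null, against 4.09 and 4.78 CPM in wild type, without overlap (log2 fold change -0.42, edgeR adjusted p = 0.425). Number 2 was higher than number 1 at both peaks in each genotype.

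**Figure D5:**
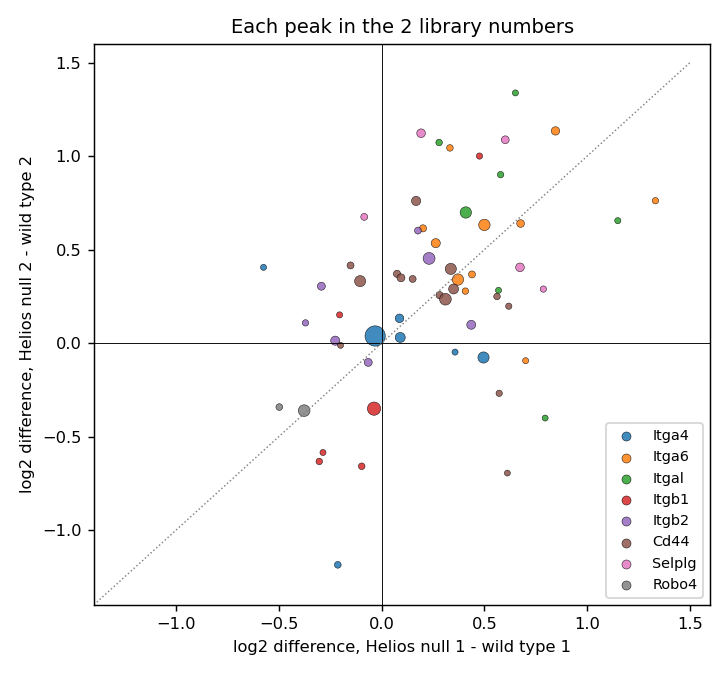
Log2 difference between Helios null and wild type within library number 1 (x axis) and within number 2 (y axis) for each of the 60 peaks, coloured by gene, with circle area growing with mean CPM and the dotted line marking equal differences. The upper right holds the 36 peaks that lay higher in Helios null in both numbers, and the lower left the 9 that lay lower in both.

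Genes that act with these receptors were set beside them, as 71 genes in 6 roles with 655 tested peaks. No peak of these genes passed (0 of 655, edgeR), and their median log2 fold change was 0.27. With an unadjusted edgeR p under 0.05 were 119 peaks on the higher side (18.2%, against 8.29% of all tested peaks) and 37 on the lower (5.65%, against 11.5%). DESeq2 called 4 of the 210 to which it gave an adjusted p (1.90%, against 2.88% of all), and limma-voom 0. Without wild type 1 edgeR called 176 of them (26.9%, against 21.5% of all peaks in that fit). Without wild type 2 it called 5 (0.763%, against 0.781%), and without Helios null 2 it called 8 (1.22%, against 1.58%). The roles differed in their medians. For other integrin subunit genes it was 0.47, and 117 of 137 peaks lay above 0. Genes of integrin activation had 0.47, with 76 of 100 above 0, and adhesion signalling genes 0.40, with 112 of 141 above 0. Near 0 lay selectin ligand synthesis at -0.086 (38 of 87 above 0), the other homing and adhesion receptors at -0.0022 (57 of 115) and the ligands of niche and endothelial cells at -0.035 (35 of 75).

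The peaks of each role with the smallest p are named in both directions, and none passed. A Distant-promoter peak of Itgb3, the platelet integrin beta chain, held 9.83 and 7.81 CPM in Helios null, against 3.39 and 4.07 CPM in wild type (log2 fold change 1.25, edgeR adjusted p = 0.189). The promoter of Itgav, the alpha chain of vitronectin receptors, held 41.2 and 47.9 CPM in Helios null, against 60.2 and 78.2 CPM in wild type. An intron of Tln2, a talin that activates integrins, held 4.88 and 4.23 CPM in Helios null, against 1.79 and 1.68 CPM in wild type. An intronic peak of Apbb1ip, the RAP1 effector RIAM, held 12.4 and 14.3 CPM in Helios null, against 18.9 and 20.2 CPM in wild type.

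Among adhesion signalling genes, a Distant-promoter peak of Pxn, which encodes the adaptor paxillin, held 25.5 and 18.8 CPM in Helios null, against 12.6 and 8.59 CPM in wild type. The promoter of Lims1, which encodes a partner of integrin-linked kinase, held 43.7 and 50.04 CPM in Helios null, against 54.0 and 73.3 CPM in wild type. Tpst2, a tyrosine sulfotransferase that modifies PSGL-1, had a Distant-promoter peak at 26.3 and 21.0 CPM in Helios null, against 14.8 and 11.2 CPM in wild type. St3gal6, a sialyltransferase, had an intergenic peak at 2.64 and 2.23 CPM in Helios null, against 4.15 and 5.81 CPM in wild type.

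Among receptors and ligands, an intergenic peak of Podxl, a sialomucin related to CD34, held 24.6 and 19.7 CPM in Helios null, against 13.1 and 13.8 CPM in wild type. An intron of Jam2, a junctional adhesion molecule, held 27.1 and 29.6 CPM in Helios null, against 41.3 and 56.7 CPM in wild type. The SLIT ligands of ROBO receptors had peaks in both directions. An intron of Slit1 held 5.15 and 6.11 CPM in Helios null, against 2.09 and 2.84 CPM in wild type, and an exonic peak of Slit2 held 19.2 and 30.1 CPM in Helios null, against 40.3 and 69.2 CPM in wild type. At none of these 12 peaks did the groups overlap, but picking by smallest p favours such peaks. Over all tested peaks, both Helios null libraries stood above both wild-type libraries at 28.0% and below at 28.3%. The edgeR adjusted p at the 12 peaks was between 0.189 and 0.254.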

How the data were processed

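Per the file headers, the authors' deposited table holds raw counts per peak for each library, as whole numbers with no normalization. It also holds the authors' mean normalised signal, log2 fold change of Helios null over wild type with its standard error, and p-value and adjusted p-value. The submitters' processing notes name the build mm10 and the tools Bowtie2 2.3.4.3, DESeq, HOMER and bcl2fastq 2.17.1.14. The peak caller was not given in the sources used here.

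Counts were tested with edgeR 4.0.16 in R 4.3.3 (filterByExpr, 130754 peaks kept, TMM, glmQLFit and glmQLFTest, 2-sided), with Benjamini-Hochberg adjustment over all tested peaks or genes. Alternatives used limma 3.58.1 and DESeq2 1.42.0, other scalings and filters, a replicate block and each library left out. Log2 differences within a library number used a prior count of 2. Intervals are 95%. The p-values of the main fit rest on the spread between 2 mice per group, which also holds the differences in sex and depth between library numbers. The libraries of a group were not duplicates, with a chi-square over its degrees of freedom of 5.16 for Helios null and 8.34 for wild type. For each member the text names the peaks of highest CPM and, in each direction, of smallest p, and its highest promoter-TSS peak. Peaks over a RefSeq start and further peaks of Itga6 (4), Selplg (1) and Robo4 (1) were chosen after their values were seen. Members and lists were chosen with earlier results of these data known.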

Additional observations from a re-analysis of the deposited data

Results flagged for a closer look

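Of the 60 member peaks 15 differed in opposite directions in the 2 library numbers, a share not computed over all tested peaks. Among the peaks described are 5 of these, and the difference between the numbers was not tested. The Itga4 promoter peak differed by -0.032 within number 1 and 0.038 within number 2, on the log2 scale of Helios null over wild type. An intronic Itga4 peak (start 79270009) differed by 0.50 within number 1 and -0.077 within number 2. The Itga6 peak with overlapping groups (start 71837914) differed by 0.70 within number 1 and -0.094 within number 2. At Itgb2 the promoter peak differed by -0.23 and 0.013, and an intronic peak (start 77537317) by -0.37 and 0.11, for numbers 1 and 2 in turn.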

How the results depend on the processing

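With 2 libraries a group, 1 library can set a value. No member peak or gene sum was called under either other scaling of the libraries, loess offsets, no filter, the stricter filter, peaks within 10 kb, DESeq2 or limma-voom. Without each library in turn, between 0 and 11 member peaks, 0 and 4 member gene sums and 0 and 176 of the other pathway peaks were called, and the members' median log2 fold change lay between 0.14 and 0.49. DESeq2 called 4 of the other pathway peaks. With the replicate block, 13 member peaks, 5 member gene sums and 191 of the other pathway peaks were called, in a fit that called 23.4% of all tested peaks and 47.0% of all gene sums. The sums called were those of Itga6, Itgal, Cd44 and Selplg, higher in Helios null, and Robo4, lower. The labels do not say what the shared number marks, and deviations of same-numbered libraries had a correlation of 0.37 across peaks.

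Directions turned where values were near 0. The Itga4 promoter peak was at 0.24 with loess offsets, the farthest that setting moved a named value, and at -0.0015 with DESeq2 size factors, -0.012 with the stricter filter, -0.0015 with DESeq2 and -0.0021 with limma-voom, and between -0.045 and 0.043 without each library in turn. Over the same leave-one-out fits, the intronic Itga4 peak lay between -0.093 and 0.50, the Itgb1 gene sum between -0.37 and 0.067 and its promoter peak between -0.44 and 0.041. The Itgb2 promoter peak lay between -0.27 and 0.045, the intronic Itgb2 peak between -0.49 and 0.23 and the low Cd44 peak between -0.30 and 0.077. The cause was not tested.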
